A study of Homo sapiens with 6 samples.

Results

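The genes described here encode the proteasome, the barrel-shaped protease that breaks down ubiquitin-tagged proteins. They were chosen by a rule on names, with earlier results of these data known. The rule took the protein-coding genes whose symbol begins with PSMA, PSMB, PSMC, PSMD, PSME, PSMF or PSMG. That rule gave 49 of the 58478 genes to which the transcripts of the table could be summed. The 6 RNA libraries, in 2 groups of 3, are labelled as Huh7 cells, a culture line established from a human liver cancer. The hypoxia libraries (C4, C5 and C6) came from wild-type cells held at 1% oxygen for 24 h, and the normoxia libraries (C1, C2 and C3) from wild-type cells held at 21% oxygen for 24 h. Both groups grew in the same serum-supplemented medium, no gene was targeted in either, and a single tumour line stands for the disease. The series title names a noncoding RNA induced by low oxygen and ferroptosis, so the comparison made here, hypoxia against normoxia, is the only contrast of the design.

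In the active enzyme, a 20S core holds the cutting sites inside a stack of rings. The outer rings are made of alpha subunits (PSMA genes), which gate the entrance, and the inner rings of beta subunits (PSMB genes), of which PSMB5, PSMB6 and PSMB7 carry the catalytic threonines. A 19S cap recognises ubiquitin, removes it, unfolds the substrate with a ring of ATPases (PSMC genes) and threads it into the core, with the remaining cap subunits encoded by PSMD genes. In cells exposed to interferon, PSMB8, PSMB9 and PSMB10 take the place of the catalytic subunits to give the immunoproteasome, which is known for making peptides for class I antigen presentation. Activators of the PSME family can replace the cap, PSMF1 binds the core as a regulator first described as an inhibitor, and the PSMG genes with PSMD5, PSMD9 and PSMD10 encode chaperones that help to assemble the particle. In many human cells the transcription factor NFE2L1 is known to drive most of these genes together when proteasome activity falls short.

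The hypoxia libraries held 37621426 to 39627686 expected counts, against 39658910 to 40794783 in the normoxia libraries. The replicates are called biological in the labels, but how the cultures were split is not described, so a p-value here reflects only how much the 3 libraries of a group vary. The labelled cell type was only partly borne out by its markers. Of 13 hepatocyte genes, 7 were under 1 CPM (counts scaled to a fixed library size) in both groups, and AFP, APOA1, TTR and GPC3 had 0 counts in every library, so the libraries are called Huh7 here only as labelled. Summed over the list, these markers held 2085 to 2313 CPM in hypoxia and 2511 to 2787 CPM in normoxia, most of it CPS1. The members went both ways. CPS1 was 1.21-fold and KRT18 1.32-fold lower in hypoxia, while SERPINA1 was 26.02-fold, HNF4A 5.40-fold and TF 1.47-fold higher. Of 10 blood-cell markers, PTPRC was at 0 counts throughout and 7 were under 1 CPM in both groups. The sum of that list was 46.3 to 56.9 CPM in hypoxia against 8.46 to 9.57 CPM in normoxia, most of it CD68. The 3 endothelial markers summed to 4.97 to 5.79 CPM in hypoxia and 11.3 to 12.3 CPM in normoxia, with PECAM1 2.30-fold higher in hypoxia and CDH5 20.04-fold lower, and the 4 fibroblast markers to 57.9 to 67.1 CPM in hypoxia and 72.3 to 75.0 CPM in normoxia, with PDGFRB 2.87-fold higher and COL1A1 1.26-fold lower. Mitochondrially encoded RNA made up 2.37% to 2.48% of counts in genes in hypoxia and 6.72% to 7.02% in normoxia. The part of these shifts in the results below was not tested.

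Most proteasome genes had less mRNA in hypoxia than in normoxia. Of the 49 genes, 47 passed the filter on low counts, and 36 of these were lower in hypoxia, 4 were higher and 7 did not pass the test (edgeR's quasi-likelihood test, Benjamini-Hochberg adjusted p under 0.05 over 17396 genes). The contrast was broad: 72.8% of all genes tested passed it, 36.3% as lower and 36.5% as higher. Among the 13140 protein-coding genes tested 77.7% passed, 43.0% as lower and 34.7% as higher. The median log2 change was -0.37 over the 47 genes, against 0.02 over all genes tested and -0.08 over the protein-coding ones. Leaving out PSMC3IP, which the rule caught though it is no part of the proteasome, 46 genes were tested. Of these, 35 were lower, 4 higher and 7 did not pass, and the median was again -0.37. At least 2-fold lower were 6 of the 47 (PSMG1, PSMA3, PSMB8, PSMA5, PSMG2 and PSME2), a share near the 11.4% of all genes and the 12.2% of protein-coding genes. In 37 of the 47, the 3 hypoxia libraries all lay below the 3 normoxia libraries, an arrangement seen in 37.6% of all genes and 44.0% of protein-coding ones. In 5 all lay above, against 38.1% of all genes and 35.9% of protein-coding ones. In RNA from a whole culture, fewer cells of a type and less RNA per cell cannot be told apart, and every level here is relative to the library's total. Scaled by plain library totals, the all-gene median moved to -0.13 and the split of all calls to 5207 higher and 7431 lower. The counts for the 47 genes then became 1 higher and 40 lower.

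**Figure D1:**
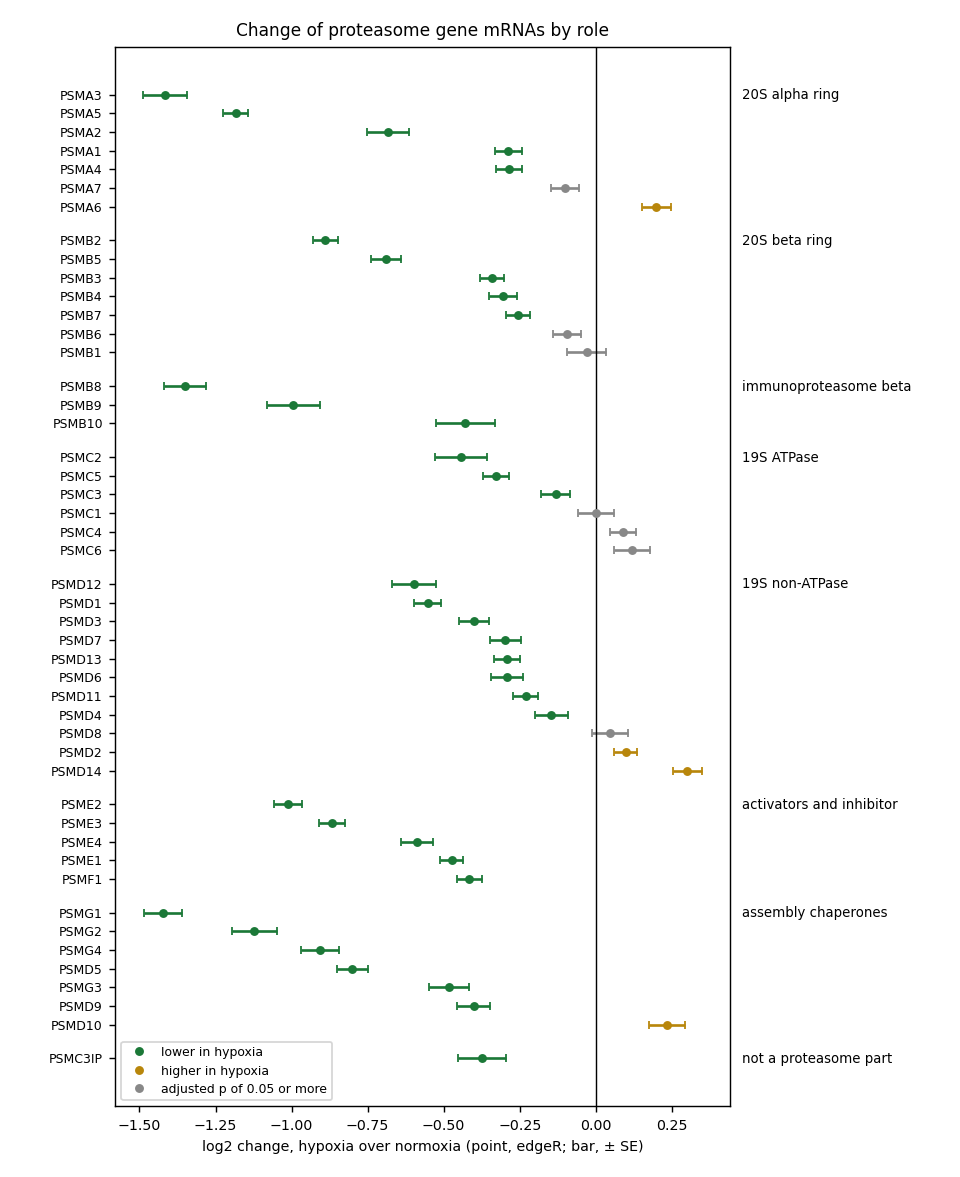
The plot shows the log2 change of each of the 47 tested genes of the rule, PSMC3IP included, hypoxia over normoxia. Each is a point with a bar of ± 1 SE from the edgeR fit, grouped by role and coloured by call. The 36 genes lower in hypoxia lie left of 0, with PSMG1, PSMA3 and PSMB8 farthest out, and PSMD14 is the farthest to the right at 0.30.

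The sequence just before each gene's start in RefSeq was taken from RefSeq promoters on GRCh38.p14, which had an entry for 43 of the 49 genes (PSMA7, PSMB1, PSMB6, PSMB7, PSMD4 and PSMG3 had none). The RefSeq start can differ from the GENCODE gene start behind the gene coordinates given here. It lies inside the GENCODE gene in 38 of the 43, and in 15 by 250 bases or more, so that the whole window falls within the gene as GENCODE draws it. The 4 sequences below are printed 5′ to 3′ on the gene's strand because they stand before the RefSeq start of genes on which the account turns: the alpha subunit and the assembly chaperone with the largest falls, an immunoproteasome gene, and PSMD14, which rose. The RefSeq start lies 12 bases inside the GENCODE gene for PSMA3, 400 for PSMG1, 10056 for PSMB9 and 387 for PSMD14. The capitals mark matches, on either strand, to the motifs searched.
PSMA3, chr14:58244593-58244842, plus strand: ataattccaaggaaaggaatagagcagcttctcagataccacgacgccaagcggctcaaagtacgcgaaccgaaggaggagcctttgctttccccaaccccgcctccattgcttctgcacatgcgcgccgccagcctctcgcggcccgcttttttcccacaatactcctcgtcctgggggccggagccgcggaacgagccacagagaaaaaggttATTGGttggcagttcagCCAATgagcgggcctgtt
PSMG1, chr21:39183452-39183701, minus strand: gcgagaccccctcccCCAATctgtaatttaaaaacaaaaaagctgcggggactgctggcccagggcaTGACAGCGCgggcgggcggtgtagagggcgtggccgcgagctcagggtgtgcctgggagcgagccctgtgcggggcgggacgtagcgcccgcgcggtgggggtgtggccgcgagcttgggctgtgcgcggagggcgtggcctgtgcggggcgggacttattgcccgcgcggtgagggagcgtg
PSMB9, chr6:32853942-32854191, plus strand: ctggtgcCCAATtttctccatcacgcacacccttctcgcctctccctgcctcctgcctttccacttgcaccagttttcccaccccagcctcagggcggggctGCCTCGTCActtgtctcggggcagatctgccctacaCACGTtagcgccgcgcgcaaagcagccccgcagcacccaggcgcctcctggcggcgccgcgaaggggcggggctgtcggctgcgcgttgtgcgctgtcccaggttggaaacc
PSMD14, chr2:161308175-161308424, plus strand: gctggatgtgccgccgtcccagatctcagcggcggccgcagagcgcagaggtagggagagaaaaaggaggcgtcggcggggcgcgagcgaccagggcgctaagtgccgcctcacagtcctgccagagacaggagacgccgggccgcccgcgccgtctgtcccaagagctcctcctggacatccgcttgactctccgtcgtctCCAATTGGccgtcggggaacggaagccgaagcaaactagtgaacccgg

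The motifs were TGACNNNGC, the core of the antioxidant response element that NFE2L1 and related factors bind, ACGTG, the core of the hypoxia response element, a pair of GAAA with 2 bases between them, the core of the interferon-stimulated response element, and the CCAAT box. The 250 bases before the RefSeq start of PSMG1 hold a TGACNNNGC match and a CCAAT, those of PSMB9 a TGACNNNGC on the opposite strand with an ACGTG and a CCAAT, and those of PSMA3 and PSMD14 CCAAT in each orientation, overlapping in PSMD14. Over the 43 genes, TGACNNNGC was present before 11 (25.6%), against 11.0% of 27305 promoters in the table and 12.1% of the 11384 whose gene was tested. Those 11 were PSMB3, PSMB9, PSMD3, PSMD12, PSME1, PSME2, PSME4, PSMG1, PSMG2, PSMD5 and PSMD9. All 11 were among the 33 genes with a promoter that were lower in hypoxia, and it stood before 0 of 4 that were higher and 0 of 4 that did not pass. PSMA7, PSMB1 and PSMB6, which also did not pass, had no promoter entry. Most of the tested genes with a promoter were lower, so this split says little on its own. The share of TGACNNNGC among all lower genes was not worked out. The paired GAAA preceded 5 of the 43 genes (11.6%), namely PSMA4, PSMB4, PSMB10, PSME2 and PSMG4, against 3.07% of all promoters and 2.35% of those of tested genes. The hypoxia core ACGTG was before 8 of the 43 (18.6%), against 18.7% of all promoters and 23.1% of those of tested genes. It stood before 6 of the 33 lower genes (PSMA1, PSMB3, PSMB9, PSME3, PSMD5 and PSMD9) and 2 of the 4 higher ones (PSMA6 and PSMD10). The CCAAT box preceded 19 (44.2%), against 33.0% and 35.3%. A match of such short letters is not a bound site, and the motifs can overlap.

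The alpha ring was led by PSMA3, PSMA5 and PSMA2, each a structural subunit of the outer ring. Of its 7 genes, 5 were lower in hypoxia, PSMA6 was higher and PSMA7 missed the threshold, and the median log2 change was -0.29. PSMA3 (ENSG00000100567, chr14:58244831-58272012 on GRCh38) had 22.1, 21.5 and 21.9 CPM in the hypoxia libraries C4, C5 and C6, against 52.1, 59.3 and 63.2 CPM in the normoxia libraries C1, C2 and C3. The hypoxia libraries agree closely and all lie far below the lowest normoxia library. The log2 change was -1.42 ± 0.07 (SE), 2.67-fold lower (edgeR adjusted p = 2.42e-08). PSMA5 (ENSG00000143106, chr1:109399031-109426427) had 62.9, 62.8 and 65.9 CPM in hypoxia and 144.2, 147.7 and 143.1 CPM in normoxia. It was 2.27-fold lower, with a log2 change of -1.18 ± 0.04 (edgeR adjusted p = 1.44e-09), and its libraries spread little within either group. PSMA2 (ENSG00000106588, chr7:42916857-42932223) had 49.9, 51.8 and 59.7 CPM in hypoxia, against 82.2, 90.5 and 86.5 CPM in normoxia, and was 1.61-fold lower (edgeR adjusted p = 5.29e-06). The groups do not overlap, though C6 stands above the other hypoxia libraries.

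PSMA1 and PSMA4 fell less, each 1.22-fold. PSMA7 averaged 87.8 ± 3.29 CPM in hypoxia and 94.2 ± 3.17 CPM in normoxia (SD, n = 3 each), a log2 change of -0.10 ± 0.05 (edgeR adjusted p = 0.0695). It passed as lower when C5 was left out (adjusted p = 0.0310), when C3 was left out (adjusted p = 0.0416), without the low-count filter (adjusted p = 0.0398), under library totals (adjusted p = 3.64e-04) and with limma on FPKM. PSMA6 (ENSG00000100902, chr14:35278633-35317493) went the other way, with 131.1, 126.6 and 137.7 CPM in hypoxia and 109.5, 117.4 and 117.7 CPM in normoxia. Its log2 change was 0.20 ± 0.05 (edgeR adjusted p = 0.00347), and its groups do not overlap. The exons of PSMA6 overlap those of another coding gene on the same strand, ENSG00000258790, which averaged 8.39 CPM in hypoxia and 27.2 CPM in normoxia. With the counts of both genes summed, a step added after the data were seen, the level was 140 ± 6.24 CPM in hypoxia and 142 ± 3.68 CPM in normoxia, and the log2 change became -0.02 (edgeR adjusted p = 0.714). The call of PSMA6 as higher was also lost under library totals (log2 change 0.05) and with limma on FPKM (log2 change 0.09).

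The constitutive beta ring moved the same way with smaller steps. Of its 7 genes, 5 were lower while PSMB1 and PSMB6 missed the threshold, and the median log2 change was -0.31. PSMB2 (ENSG00000126067, chr1:35599544-35641844), a beta subunit without a catalytic site, had 63.1, 62.5 and 61.2 CPM in hypoxia and 117.8, 112.6 and 115.5 CPM in normoxia. It was the beta gene with the largest fall, 1.85-fold (log2 change -0.89 ± 0.04, edgeR adjusted p = 1.15e-08). PSMB3, likewise non-catalytic, had 124.4, 131.4 and 126.4 CPM in hypoxia, against 161.6, 161.6 and 160.7 CPM in normoxia, 1.27-fold lower (edgeR adjusted p = 1.72e-05). PSMB4 fell 1.24-fold. PSMB1 averaged 45.7 ± 3.80 CPM in hypoxia and 46.7 ± 1.72 CPM in normoxia (SD, n = 3 each), and the ranges overlap. It passed as lower under library totals (adjusted p = 0.0226) and with limma.

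Each of the catalytic subunits cuts after a different kind of residue, and their mRNAs did not fall by the same amount. The chymotrypsin-like subunit PSMB5 (ENSG00000100804, chr14:23016543-23035230), the main target of clinical proteasome inhibitors, had 67.1, 68.6 and 62.6 CPM in hypoxia and 110.3, 103.1 and 106.6 CPM in normoxia. It was 1.61-fold lower (log2 change -0.69 ± 0.05, edgeR adjusted p = 3.45e-07). The trypsin-like subunit PSMB7 (ENSG00000136930, chr9:124353466-124415444) had 108.2, 110.9 and 112.4 CPM in hypoxia, against 135.1, 129.8 and 131.1 CPM in normoxia, 1.20-fold lower (edgeR adjusted p = 1.71e-04). Both genes have groups that do not overlap. The caspase-like subunit PSMB6 (ENSG00000142507, chr17:4796144-4798503) had 71.2, 67.2 and 67.0 CPM in hypoxia and 71.3, 75.3 and 72.7 CPM in normoxia, with a log2 change of -0.09 ± 0.05 that did not pass (edgeR adjusted p = 0.0854). Its highest hypoxia library, C4, is level with its lowest normoxia library. PSMB6 passed as lower under library totals (adjusted p = 8.70e-04) and with limma on log2(FPKM + 0.5) (adjusted p = 9.80e-04).

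The immunoproteasome genes fell together. PSMB8 and PSMB9, neighbours in the class II region of the MHC on chromosome 6, fell most. PSMB10 on chromosome 16 fell less, and the median log2 change over the 3 was -0.99. Exons of PSMB8 and PSMB9 overlap on opposite strands, so reads of that stretch cannot be told apart if counting ignored strand. PSMB8 (ENSG00000204264, chr6:32840717-32844703), the immune counterpart of PSMB5, had 25.1, 22.6 and 22.8 CPM in hypoxia, against 64.7, 59.7 and 55.6 CPM in normoxia. It was 2.55-fold lower (log2 change -1.35 ± 0.07, edgeR adjusted p = 2.47e-08). Its antisense neighbour PSMB8-AS1, whose reads cannot be told apart from it if counting ignored strand, had 6.31, 5.85 and 5.03 CPM in hypoxia and 3.45, 3.62 and 3.52 CPM in normoxia. PSMB9 (ENSG00000240065, chr6:32844136-32859585), the counterpart of PSMB6, had 8.28, 9.97 and 9.25 CPM in hypoxia and 17.6, 18.2 and 18.97 CPM in normoxia, 1.99-fold lower (edgeR adjusted p = 1.93e-06). The exons of PSMB9 overlap those of PSMB8-AS1 on the same strand, so reads of PSMB9 may have been divided even if strand was used. A sum with PSMB8-AS1 was not tested. In both PSMB8 and PSMB9 every hypoxia library is well below every normoxia library. PSMB10 (ENSG00000205220, chr16:67934502-67937087), the counterpart of PSMB7, had 12.1, 14.3 and 12.7 CPM in hypoxia, against 16.7, 19.6 and 16.3 CPM in normoxia. It was 1.35-fold lower (edgeR adjusted p = 0.00232), and its groups are close but do not overlap. Summed over the 3 genes, the level was 45.7 ± 1.078 CPM in hypoxia and 95.7 ± 4.32 CPM in normoxia (SD, n = 3 each).

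**Figure D2:**
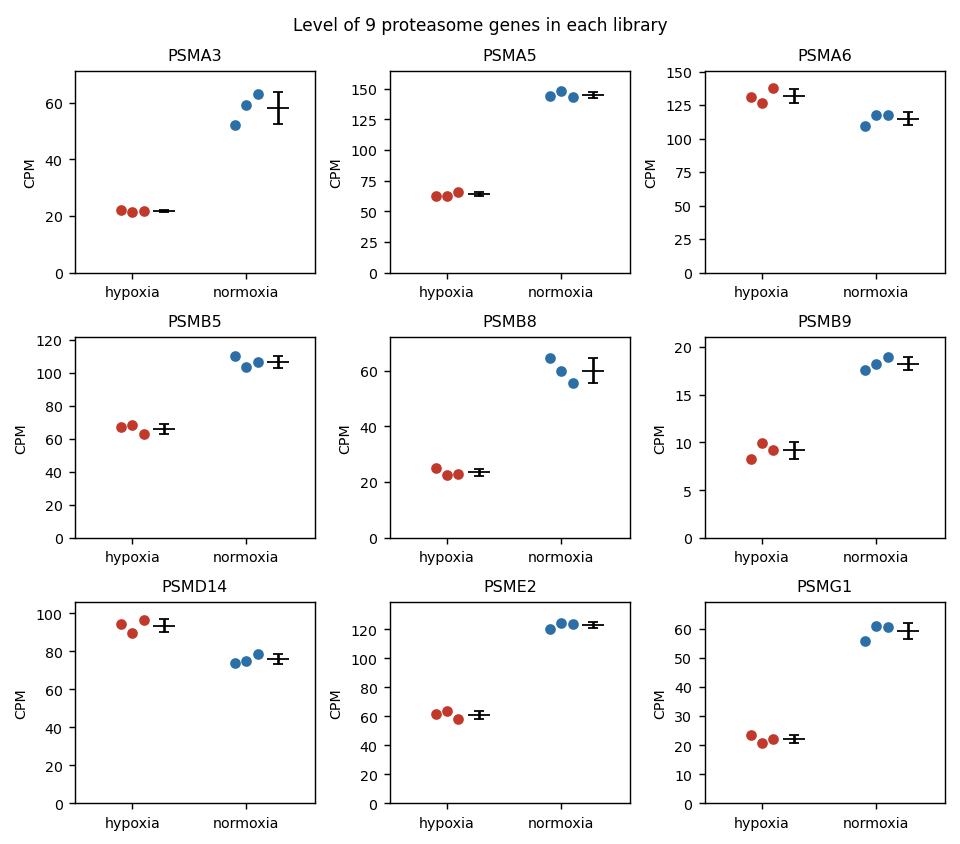
The dots give the level (CPM, linear axis from 0) of 9 proteasome genes in each hypoxia library and each normoxia library, with a horizontal bar and whiskers for the mean ± SD of 3 libraries. PSMA6 and PSMD14 lie higher in hypoxia, and the other 7 lie lower with no overlap, as in PSMA3 at 21.5 to 22.1 CPM in hypoxia against 52.1 to 63.2 CPM in normoxia.

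Because the immune subunits replace the constitutive ones in the same particle, each was also set against its partner within a library, a ratio that does not depend on scaling between libraries. The counts of PSMB8 were 37.4%, 33.0% and 36.5% of those of PSMB5 in hypoxia, against 58.6%, 57.9% and 52.2% in normoxia. PSMB9 held 11.6%, 14.8% and 13.8% of the counts of PSMB6 in hypoxia and 24.7%, 24.2% and 26.1% in normoxia. In both, every hypoxia library is below every normoxia library. The part of the same-strand overlap of PSMB9 with PSMB8-AS1 in its ratio was not tested. Nor was that of the opposite-strand overlap of PSMB8 with PSMB9 in either ratio. The log2 difference of the ratios was -0.66 for PSMB8 to PSMB5 and -0.90 for PSMB9 to PSMB6, each with an exact two-sided permutation p of 0.1, the smallest that 3 against 3 allows, and 0.15 adjusted over the 3 pairs. PSMB10 had 11.2%, 12.9% and 11.3% of the counts of PSMB7 in hypoxia, against 12.4%, 15.1% and 12.4% in normoxia, and these ranges overlap (log2 difference -0.17, exact permutation p = 0.3, adjusted p = 0.3). Per transcript length, the FPKM ratios averaged 30.2% in hypoxia and 49.5% in normoxia for PSMB8 to PSMB5, and 11.4% in hypoxia and 22.1% in normoxia for PSMB9 to PSMB6. The constitutive partner was thus the more abundant mRNA of each pair in both groups.

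**Figure D3:**
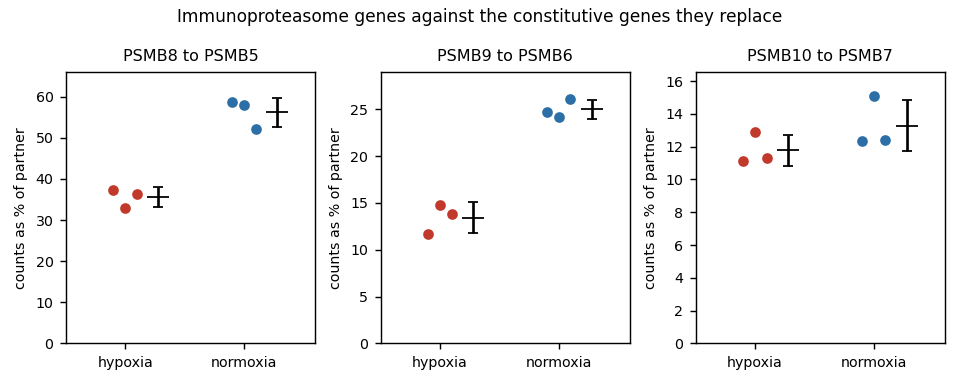
The dots give the expected counts of an immunoproteasome gene as a percentage of those of its constitutive partner in each library, hypoxia left and normoxia right, with the mean ± SD of 3 libraries beside them. PSMB8 to PSMB5 sits at 33.0% to 37.4% in hypoxia and 52.2% to 58.6% in normoxia, whereas the groups of PSMB10 to PSMB7 overlap.

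The core genes that other tissues use were at or near the floor. PSMA8, an alpha subunit of the testis, had 0 counts in all 6 libraries. PSMB11, the catalytic subunit of the thymic cortex, had 1, 5 and 0 counts in the hypoxia libraries and 0 in each normoxia library. A count of 0 allows up to 3 counts, or 0.0842 to 0.0898 CPM in a hypoxia library and 0.0750 to 0.0765 CPM in a normoxia library, counting error only. Neither gene was tested.

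The ATPase ring of the cap stood closest to no change. Of its 6 genes, PSMC2, PSMC5 and PSMC3 were lower and PSMC1, PSMC4 and PSMC6 missed the threshold, and the median log2 change was -0.06. PSMC2 (ENSG00000161057, chr7:103344254-103369395) had 48.6, 48.3 and 47.3 CPM in hypoxia, against 55.1, 69.6 and 71.2 CPM in normoxia, 1.36-fold lower (edgeR adjusted p = 8.11e-04). The normoxia library C1 is nearer to the hypoxia libraries than the other two. PSMC5 had 77.0, 81.0 and 81.6 CPM in hypoxia and 102.4, 98.9 and 99.1 CPM in normoxia, a ratio of 0.797 of hypoxia to normoxia (edgeR adjusted p = 4.57e-05). PSMC3 had 67.9, 70.9 and 64.8 CPM in hypoxia, against 74.4, 76.0 and 72.5 CPM in normoxia, a 1.09-fold fall (edgeR adjusted p = 0.0293). That call was lost without C4 (adjusted p = 0.0698), without C6 (adjusted p = 0.0945) and without C2 (adjusted p = 0.0878), and with coding transcripts (adjusted p = 0.0696) or the most abundant transcript (adjusted p = 0.251) alone.

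PSMC4 had 65.1, 66.0 and 63.0 CPM in hypoxia and 60.4, 61.0 and 61.1 CPM in normoxia, and PSMC6 had 51.4, 47.2 and 52.7 CPM in hypoxia and 44.2, 49.0 and 46.0 CPM in normoxia. Their log2 changes of 0.09 ± 0.04 and 0.12 ± 0.06 did not pass (edgeR adjusted p = 0.0807 and 0.0932). PSMC4 passed as higher without C6 (adjusted p = 0.0432) or with a filter on FPKM (adjusted p = 0.0465) and PSMC6 without C5 (adjusted p = 0.0239). PSMC1 had 83.9, 81.6 and 90.1 CPM in hypoxia and 90.9, 79.3 and 85.2 CPM in normoxia, with a log2 change of 0.001 (edgeR adjusted p = 0.989). It has 13 annotated pseudogenes with counts equal to 23.8% of its own in hypoxia and 24.2% in normoxia, so its reads may have been divided, and its direction turned to lower under library totals (log2 change -0.15, adjusted p = 0.0468).

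Among the 11 non-ATPase cap genes, 8 were lower, PSMD14 and PSMD2 were higher, and PSMD8 missed the threshold, and the median log2 change was -0.29. PSMD12 (ENSG00000197170, chr17:67337916-67366627), a lid subunit, had 51.2, 47.1 and 56.0 CPM in hypoxia and 71.0, 80.6 and 81.8 CPM in normoxia, 1.51-fold lower (edgeR adjusted p = 2.67e-05). PSMD1 (ENSG00000173692, chr2:231056864-231172827), a large scaffold of the base, had 85.0, 82.5 and 89.8 CPM in hypoxia, against 124.2, 127.3 and 125.8 CPM in normoxia, 1.47-fold lower (edgeR adjusted p = 9.27e-07). PSMD3 had 90.8, 97.3 and 89.6 CPM in hypoxia and 124.2, 126.3 and 116.3 CPM in normoxia, 1.32-fold lower (edgeR adjusted p = 2.95e-05). In all 3 genes the groups stand clear of each other. The lid genes PSMD6, PSMD7, PSMD11 and PSMD13 fell by 1.17- to 1.23-fold. The ubiquitin receptor PSMD4 fell 1.11-fold (edgeR adjusted p = 0.0336), a call lost without C4 (adjusted p = 0.0554), C6 (0.103), C1 (0.0847) or C2 (0.101).

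PSMD14 (ENSG00000115233, chr2:161308038-161411717), the metalloprotease that cuts ubiquitin chains off the substrate as it enters, was the clearest exception. It had 94.4, 89.6 and 96.3 CPM in hypoxia, against 73.7, 75.1 and 78.7 CPM in normoxia. The lowest hypoxia library lies above the highest normoxia library, and the level was 1.23-fold higher (log2 change 0.30 ± 0.05, edgeR adjusted p = 1.65e-04). PSMD2 (ENSG00000175166, chr3:184298709-184309054), the base scaffold that receives ubiquitin-like shuttle proteins, had 300.8, 308.6 and 312.3 CPM in hypoxia and 285.6, 289.5 and 286.2 CPM in normoxia. Its rise of 1.07-fold (edgeR adjusted p = 0.0319) was lost without C6 (adjusted p = 0.0526), C1 (0.117), C2 (0.115) or C3 (0.121). That call was also lost without the low-count filter (adjusted p = 0.244), with limma on FPKM, and with coding transcripts (0.0928) or the most abundant transcript (0.141) alone. The sign of PSMD2 turned under library totals (log2 change -0.05). PSMD8, a lid subunit, had 45.4, 52.1 and 48.5 CPM in hypoxia and 47.0, 48.8 and 45.6 CPM in normoxia, ranges that overlap (edgeR adjusted p = 0.495).

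The genes of the alternative activators and of PSMF1 were all lower, 5 of 5, with a median log2 change of -0.59. PSME2 (ENSG00000100911, chr14:24143362-24147570) and PSME1 (chr14:24136158-24138967), which are neighbours and encode the partners of the interferon-inducible PA28 ring, fell unequally. PSME2 had 61.3, 63.7 and 58.1 CPM in hypoxia, against 120.4, 124.6 and 123.8 CPM in normoxia, 2.02-fold lower (edgeR adjusted p = 1.07e-08). PSME1 had 127.9, 129.3 and 126.5 CPM in hypoxia and 181.9, 176.6 and 174.4 CPM in normoxia, 1.39-fold lower (edgeR adjusted p = 1.02e-06). PSME1 thus kept more of its normoxia level than its partner. The nuclear activator PSME3 had 82.5, 79.8 and 79.0 CPM in hypoxia, against 141.6, 148.4 and 149.8 CPM in normoxia, 1.82-fold lower (edgeR adjusted p = 1.85e-08). PSME4, the large nuclear activator PA200, had 133.3, 125.2 and 140.1 CPM in hypoxia and 191.0, 199.8 and 208.4 CPM in normoxia, a ratio of 0.665 of hypoxia to normoxia (edgeR adjusted p = 1.97e-06). The regulator PSMF1 had 60.9, 64.0 and 61.5 CPM in hypoxia and 83.0, 82.1 and 83.6 CPM in normoxia, 1.33-fold lower (edgeR adjusted p = 5.99e-06). In each of the 5 the hypoxia libraries lie below the normoxia libraries without overlap.

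Of the 7 assembly chaperone genes, 6 fell and PSMD10 rose, with a median log2 change of -0.80. The PSMG proteins work in pairs on the alpha ring, PSMG1 with PSMG2 and PSMG3 with PSMG4. PSMG1 (ENSG00000183527, chr21:39174769-39183851) had 23.5, 20.7 and 22.1 CPM in hypoxia, against 56.0, 61.2 and 60.5 CPM in normoxia, and its fall of 2.68-fold was the largest of the 47 genes (log2 change -1.42 ± 0.06, edgeR adjusted p = 7.26e-09). Its partner PSMG2 (ENSG00000128789, chr18:12658043-12725740) had 12.9, 11.99 and 11.1 CPM in hypoxia and 25.2, 26.7 and 26.3 CPM in normoxia, 2.18-fold lower (edgeR adjusted p = 1.86e-07). Both members of this pair were therefore past 2-fold. PSMG4 had 22.0, 21.0 and 23.7 CPM in hypoxia, against 42.7, 42.3 and 39.8 CPM in normoxia, 1.87-fold lower (edgeR adjusted p = 2.69e-07). PSMG3 had 23.8, 20.6 and 21.5 CPM in hypoxia and 30.4, 30.5 and 31.1 CPM in normoxia, 1.40-fold lower (edgeR adjusted p = 6.33e-05).

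The chaperones of the 19S base did not move alike. PSMD5 had 52.3, 49.99 and 52.1 CPM in hypoxia, against 85.1, 88.9 and 94.9 CPM in normoxia, 1.74-fold lower (edgeR adjusted p = 1.50e-07). PSMD9 averaged 23.3 ± 0.466 CPM in hypoxia and 30.8 ± 0.736 CPM in normoxia (SD, n = 3 each), 1.32-fold lower. PSMD10 (ENSG00000101843, chrX:108084207-108091618), also known as the oncoprotein gankyrin, had 30.5, 30.0 and 31.7 CPM in hypoxia and 26.6, 27.0 and 24.8 CPM in normoxia, 1.18-fold higher with no overlap (edgeR adjusted p = 0.00426). That call was lost under library totals (log2 change 0.08, adjusted p = 0.239) and with limma on FPKM (0.07, adjusted p = 0.323). The remaining gene that the rule caught, PSMC3IP, encodes a cofactor of DNA recombination and is no part of the proteasome. It averaged 19.1 ± 1.20 CPM in hypoxia and 24.7 ± 2.02 CPM in normoxia, 1.30-fold lower (edgeR adjusted p = 0.00149).

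The summed levels of the structures are given as a description. The 14 constitutive core genes together held 1175 ± 11.9 CPM in hypoxia and 1544 ± 18.1 CPM in normoxia (SD, n = 3 each), a ratio of 0.761. The 17 cap genes held 1456 ± 15.7 CPM in hypoxia and 1619 ± 24.3 CPM in normoxia, a ratio of 0.899. The ratio was 0.477 for the immunoproteasome genes, 0.636 for the activators with PSMF1 and 0.604 for the chaperones.

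Levels between genes were compared per length, as FPKM, worked out per transcript from its expected counts and its length and summed over a gene's transcripts. The alpha ring, whose subunits are needed in equal numbers, ranged over 5.76-fold in hypoxia, with PSMA3 lowest at 21.9 FPKM and PSMA6 highest at 126.3 FPKM. In normoxia it ranged over 2.03-fold, with PSMA3 lowest at 65.1 FPKM and PSMA1 highest at 132.5 FPKM. PSMA3 and PSMA2 do not differ beyond their spread in normoxia, where PSMA3 had 65.1 ± 6.14 FPKM and PSMA2 68.9 ± 1.87 FPKM (SD, n = 3 each). In the beta ring PSMB3 was highest in both groups, at 160.3 ± 1.89 FPKM in hypoxia and 226.1 ± 1.67 FPKM in normoxia. PSMB2 was lowest in both, at 23.1 ± 1.18 FPKM in hypoxia and 48.1 ± 1.498 FPKM in normoxia, and PSMB1 came next in normoxia at 52.8 ± 1.97 FPKM.

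Among the immune genes PSMB8 had the highest level, 18.2 ± 1.44 FPKM in hypoxia and 53.6 ± 4.07 FPKM in normoxia. PSMB10 had 12.8 ± 0.931 FPKM in hypoxia and 19.5 ± 2.24 FPKM in normoxia, and PSMB9 had 8.95 ± 0.586 FPKM in hypoxia and 20.7 ± 1.11 FPKM in normoxia. In hypoxia every library put PSMB10 above PSMB9, whereas in normoxia their libraries overlap. Of the cap genes PSMD2 stood apart at 131.8 FPKM in hypoxia and 128.9 FPKM in normoxia. The other 16 had at most 66.4 FPKM in hypoxia (PSMC1) and 77.9 FPKM in normoxia (PSMC5). These are levels of all RNA assigned to a gene, unspliced forms included.

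**Figure D4:**
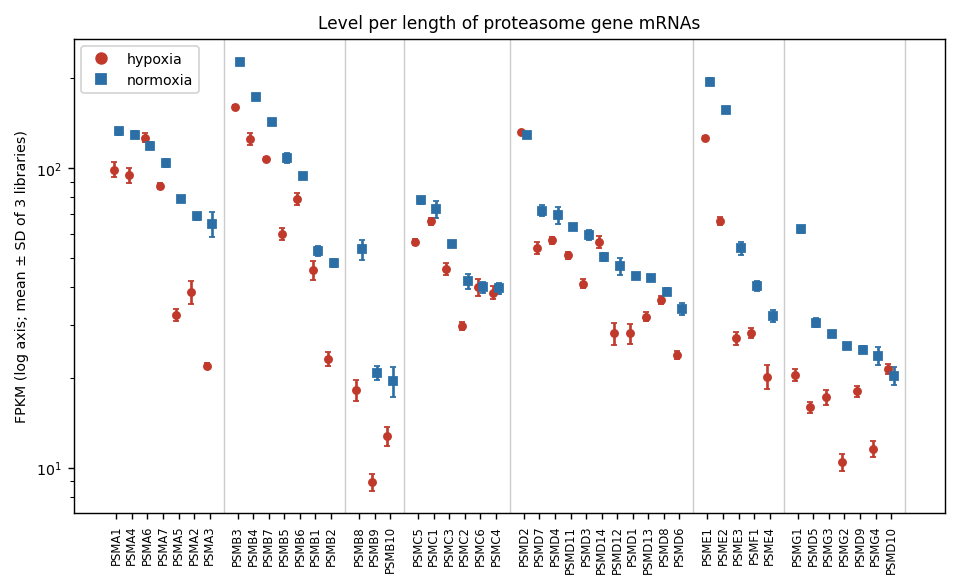
The level per length of 46 proteasome genes (FPKM on a log axis, mean ± SD of 3 libraries) is shown for hypoxia (circles) and normoxia (squares), in blocks for alpha ring, beta ring, immune beta, ATPase, non-ATPase, activators with PSMF1, and chaperones, ordered by the normoxia level. The alpha ring spreads from 21.9 to 126.3 FPKM in hypoxia and from 65.1 to 132.5 FPKM in normoxia.

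Coding transcripts held most of the counts summed over the genes, though not of each gene. Over the 46 tested genes without PSMC3IP, coding transcripts held 87.7% to 88.3% of expected counts in hypoxia and 88.5% to 88.6% in normoxia. In PSMA5 the coding share was only 31.6% ± 2.32 in hypoxia and 30.0% ± 3.58 in normoxia (SD, n = 3 each), and its most abundant transcript is annotated as a processed transcript without a coding frame. With coding transcripts alone PSMA5 was still lower in hypoxia (log2 change -1.08, edgeR adjusted p = 3.10e-06). PSMD12, at 45.7% in hypoxia and 48.6% in normoxia, and PSMD9, at 43.6% in hypoxia and 47.3% in normoxia, were the other genes with under 50% coding. Transcripts annotated as retaining an intron held 6.27% to 6.54% in hypoxia and 4.86% to 5.06% in normoxia, against 6.472% to 6.503% in hypoxia and 5.16% to 5.36% in normoxia over all protein-coding genes tested. Of the 36 proteasome genes with such a transcript counted, 14 had a higher share in every hypoxia library than in any normoxia library and 0 a lower one, where 25.9% of 7280 protein-coding genes had the first and 7.94% the second arrangement. PSMD6 had the share at 32.7%, 34.2% and 33.4% in hypoxia, against 24.5%, 20.2% and 22.3% in normoxia. In PSMB8 it was 6.33%, 8.22% and 8.42% in hypoxia and 3.31%, 1.99% and 2.97% in normoxia. The main coding transcript of PSMA3, PSMA3-201, held 88.9% of the gene's counts in hypoxia and 94.0% in normoxia, and its own level was 19.4 CPM in hypoxia and 54.7 CPM in normoxia. The split between the coding transcripts of PSMB8 moved too, with PSMB8-202 at 52.6% of counts in hypoxia and 72.2% in normoxia and PSMB8-201 at 39.8% in hypoxia and 25.0% in normoxia. These shares rest on how reads common to several transcripts were divided.

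The genes that work with the proteasome were taken from a list of 36, of which 35 were tested. In it 9 were higher in hypoxia, 20 lower and 6 past neither side of the threshold, and the median log2 change was -0.13. The backgrounds given above were 36.5% higher and 36.3% lower over all genes tested, and 34.7% higher and 43.0% lower over protein-coding ones. The highest rises, of NGLY1 and NFE2L1, were in the route that makes active NFE2L1, the factor that responds to a shortage of proteasome activity. Of the 7 genes listed for that route, NFE2L2 included and DDI2 not, 3 were higher and 2 lower, with a median log2 change of 0.04. The other 2, NPLOC4 and FAF2, did not pass (log2 changes 0.04 and -0.02, edgeR adjusted p = 0.366 and 0.592). NFE2L1 itself (ENSG00000082641, chr17:48048329-48061487) had 546.7, 554.1 and 517.2 CPM in hypoxia, against 152.3, 155.1 and 151.3 CPM in normoxia, 3.53-fold higher (log2 change 1.82 ± 0.04, edgeR adjusted p = 6.98e-11). With its most abundant transcript alone the log2 change was 1.03 (edgeR adjusted p = 2.93e-06). NGLY1, the glycosidase that strips sugars from NFE2L1, had 101.9, 102.2 and 108.0 CPM in hypoxia and 26.4, 30.4 and 31.2 CPM in normoxia, 3.54-fold higher (edgeR adjusted p = 1.37e-09). No library of either group comes near the other in these genes. UFD1, a cofactor of the segregase VCP that pulls NFE2L1 from the endoplasmic reticulum, had 64.7, 70.5 and 68.1 CPM in hypoxia and 45.4, 46.7 and 43.4 CPM in normoxia, a log2 change of 0.59 ± 0.05 (edgeR adjusted p = 1.81e-06). VCP fell 1.35-fold and DDI2, the protease that cuts NFE2L1 to its active form, fell by 0.59 on the log2 scale. NFE2L2, a relative of NFE2L1 known for the antioxidant response, fell 1.19-fold (edgeR adjusted p = 0.0135), a call lost without C5 (adjusted p = 0.0531) or C3 (0.0509).

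Of the proteins bound to the cap, ADRM1 rose while its partner UCHL5 fell. ADRM1, a ubiquitin receptor that recruits the deubiquitinase UCHL5, had 84.4, 94.1 and 82.9 CPM in hypoxia, against 51.6, 52.1 and 50.7 CPM in normoxia, 1.70-fold higher (edgeR adjusted p = 3.79e-07). UCHL5 had 52.2, 46.1 and 56.4 CPM in hypoxia, against 94.7, 99.9 and 102.6 CPM in normoxia, 1.92-fold lower (edgeR adjusted p = 4.20e-07), a call lost when only the most abundant transcript was counted (log2 change -0.42, adjusted p = 0.0920). SEM1, the smallest lid subunit, had 12.9, 14.0 and 14.4 CPM in hypoxia and 17.1, 16.1 and 15.0 CPM in normoxia, 1.17-fold lower (edgeR adjusted p = 0.0296). That call was lost with DESeq2 (adjusted p = 0.0537) and without C4 (adjusted p = 0.105), C5 (0.05002), C1 (0.0896) or C2 (0.0601), and with coding transcripts (0.162) or the most abundant transcript (0.278) alone. POMP, the maturation factor of the core, had 39.2, 36.0 and 36.5 CPM in hypoxia, against 31.6, 33.5 and 32.7 CPM in normoxia, 1.14-fold higher (edgeR adjusted p = 0.00924), a call lost under library totals (log2 change 0.04) and with limma on FPKM (0.04). The deubiquitinase USP14 and the adaptor ECPAS fell 1.36-fold and 1.48-fold.

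Of the shuttles that carry ubiquitinated proteins to the cap, UBQLN4 had 67.5, 63.4 and 61.3 CPM in hypoxia and 109.1, 108.2 and 97.5 CPM in normoxia, 1.64-fold lower (edgeR adjusted p = 9.24e-07). RAD23B, another of them, averaged 270.4 ± 11.3 CPM in hypoxia and 233.6 ± 11.6 CPM in normoxia (SD, n = 3 each), 1.16-fold higher (edgeR adjusted p = 0.00261), a call lost under library totals and with limma. UBLCP1, a phosphatase of nuclear proteasomes, had 8.70, 7.58 and 9.64 CPM in hypoxia, against 16.6, 18.4 and 19.2 CPM in normoxia, 2.09-fold lower (edgeR adjusted p = 3.82e-06).

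Genes that control the immunoproteasome or load its peptides were split, with 5 of 8 lower, 2 higher and TAPBP not passing. NLRC5, which activates class I antigen presentation genes, had 17.4, 19.9 and 16.8 CPM in hypoxia, against 46.0, 51.1 and 43.9 CPM in normoxia, 2.61-fold lower (edgeR adjusted p = 7.12e-08). TAP2, a chain of the peptide transporter encoded beside PSMB8, had 41.4, 37.7 and 34.9 CPM in hypoxia and 95.1, 93.1 and 92.8 CPM in normoxia, 2.46-fold lower (edgeR adjusted p = 1.10e-08). ERAP2, a peptide-trimming enzyme, had 2.61, 2.42 and 2.40 CPM in hypoxia, against 7.45, 7.70 and 8.57 CPM in normoxia, 3.19-fold lower (edgeR adjusted p = 3.82e-07), or a difference of -1.04 with limma on log2(FPKM + 1), a scale that understates changes of low genes. In these 3 genes the groups stand far apart. TAP1, the other transporter chain, fell only 1.09-fold (edgeR adjusted p = 0.0160), a call lost without C4 (adjusted p = 0.0540) and with a sign that turned when only coding transcripts were summed (log2 change 0.01). IRF1 fell 1.09-fold (edgeR adjusted p = 0.0338), a call lost with DESeq2 (adjusted p = 0.0792), without C4 (0.0785), C6 (0.0939), C1 (0.0539) or C3 (0.0835). The class I light chain B2M had 1396, 1357 and 1459 CPM in hypoxia and 1117, 1183 and 1202 CPM in normoxia, 1.20-fold higher (edgeR adjusted p = 2.00e-04), a call lost with its most abundant transcript alone (adjusted p = 0.0503). ERAP1, the other trimming enzyme, had 71.4, 66.6 and 69.3 CPM in hypoxia and 59.1, 59.9 and 59.3 CPM in normoxia, 1.16-fold higher (edgeR adjusted p = 0.00120), a call lost under library totals (log2 change 0.06) and, narrowly, with its most abundant transcript alone (adjusted p = 0.05004).

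**Figure D5:**
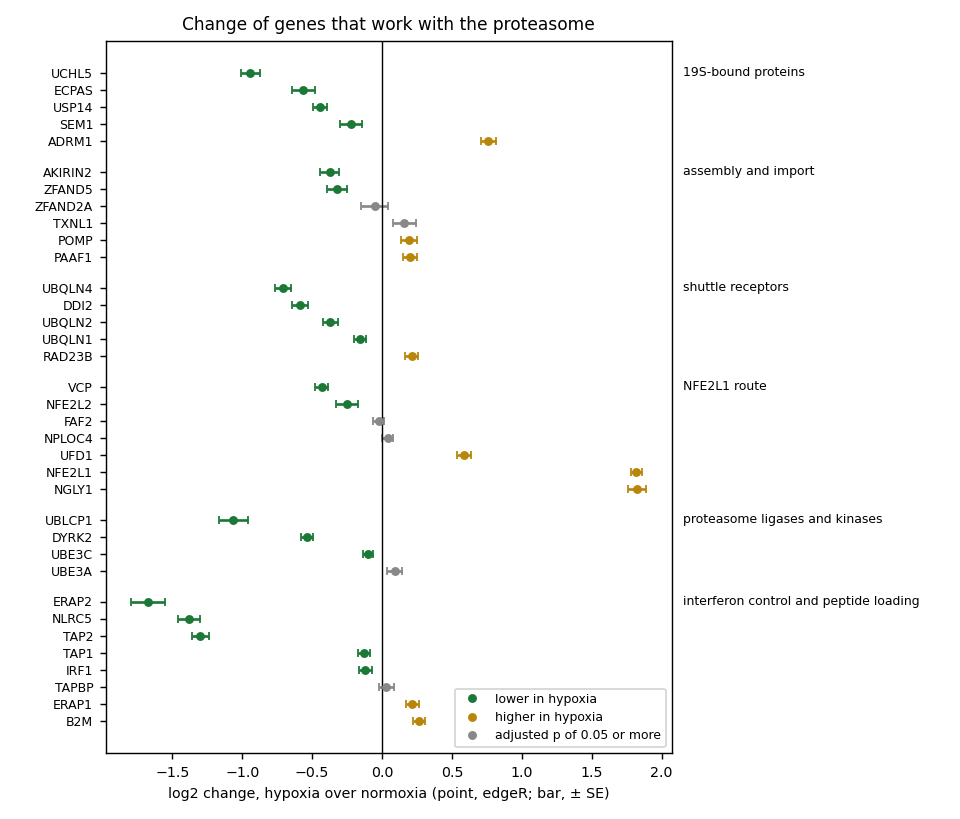
The plot shows the log2 change, hypoxia over normoxia, of the 35 tested genes that work with the proteasome, as a point with a bar of ± 1 SE from the edgeR fit, grouped by function and coloured by call. NGLY1 and NFE2L1 lie farthest right at 1.83 and 1.82, and ERAP2 farthest left at -1.67.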

How the data were processed

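RNA abundance was measured in 6 strand-specific, rRNA-depleted libraries, 3 per condition. Cutadapt, HISAT2 and RSEM were used with GRCh38 (hg38), per the submitters' processing notes. The sources used here state neither their versions nor the annotation, nor whether strand was used in counting. The authors deposited 251062 transcript rows, and per the file headers each holds an expected count per library, the RSEM estimate of reads, and a length. A second set of 6 deposited columns (FPKM) was not used. The column names give the condition (C1 to C3 normoxia, C4 to C6 hypoxia). FPKM was computed from the counts and lengths.

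Rows were added up by gene using GENCODE release 29. The 48155 rows without a gene in it held 6.12% to 6.39% of counts and were left out. Sums were rounded, filtered by filterByExpr, scaled by TMM and tested with edgeR 4.0.16 (quasi-likelihood, two-sided, limma 3.58.1, R 4.3.3), with Benjamini-Hochberg adjustment over 17396 genes. The SE is the log2 change divided by the square root of F. CPM uses the TMM-scaled library. Floors of 3 counts cover counting error only. Ratios were compared by exact permutation over libraries. On simulated data for this comparison with 17074 genes tested, 68% of 50 genes changed 1.25-fold and 100% of 50 changed 1.5-fold were recovered. The changed genes were few, lay above the median level, and rose and fell in equal number. The real contrast was far broader, so recovery in it, and for low genes, may differ.

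The members and lists were chosen with earlier results of these data known. Values per library are given for catalytic and immune subunits, activators, PSMG genes, the 3 largest called changes of other roles, members against their role's direction, and the 6 largest called accessory genes on each side with NFE2L1, POMP, ADRM1 and SEM1. Others, such as RAD23B and TAP1, were named after their values were seen. Of the accessory list as first drawn up, 2 genes are not reported here. Alternatives were DESeq2 1.42.0, limma on log2(FPKM + 0.5), other filters, scalings and transcript choices, and leaving out each library. Of the alternatives, 2 were added after seeing the data.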

Additional observations from a re-analysis of the deposited data

How the results depend on the processing

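No paired analysis was possible because the column names carry no replicate number that matches the labels. Across 19 alternatives, 34 genes of the rule, PSMC3IP included, were lower in hypoxia in every setting. PSMD14 was the only one higher in every setting. The count of lower genes ranged from 34 to 40, and from 34 to 37 with a library left out, and the count of higher genes ranged from 3 to 5 with a library left out. The higher count was 1 under library totals and 1 in each limma fit, where the all-gene median was between -0.10 and -0.06. For the list of 36 genes that work with the proteasome, the higher count was 5 under library totals and ranged from 9 to 11 with a library left out, and the lower count ranged from 16 to 19. The log2 difference of ratios with a library left out ranged from -0.71 to -0.60 for PSMB8 to PSMB5, from -0.98 to -0.80 for PSMB9 to PSMB6 and from -0.24 to -0.07 for PSMB10 to PSMB7. With the most abundant transcript of each gene alone it was -1.16, -0.61 and -0.16 in the same order. PSMB8 to PSMB5 then moved more than PSMB9 to PSMB6, the reverse of the main result.

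Signs turned under at least 1 alternative in 15 genes. In 9 of them (PSMB1, PSMC4, PSMC6, PSMD8, TXNL1, ZFAND2A, FAF2, UBE3A and TAPBP) neither value passed the threshold, and the turned log2 changes were between -0.12 and 0.03. In the other 6 at least 1 of the values passed. PSMA6 moved to -0.019 with its same-strand neighbour added. Under library totals PSMC1 was at -0.15, PSMD2 at -0.055 and NPLOC4 at -0.11. With limma at pseudocounts of 0.5, 0.1 and 1, PAAF1 was at -0.0150, -0.0152 and -0.0147. TAP1 was at 0.0115 with coding transcripts and 0.0119 with the most abundant transcript alone. The cause of these shifts was not tested. At 3 libraries per group, changes near 1.1-fold (PSMC3, PSMD4, PSMD2) passed or missed the threshold depending on which library was left out.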

Other observations

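Of the genes of the rule, 16, PSMC3IP included, share exon positions with an opposite-strand gene that was tested, and 6 with a same-strand one. PSMD6-AS2, antisense to the lid gene PSMD6, had 11.0, 9.34 and 10.2 CPM in hypoxia and 7.23, 7.42 and 6.68 CPM in normoxia (log2 change 0.52 ± 0.10, edgeR adjusted p = 7.86e-04), while PSMD6 itself was lower in hypoxia. PSMB8-AS1 moved the same way (log2 change 0.70 ± 0.13, edgeR adjusted p = 5.96e-04). Summed with its same-strand coding neighbour ENSG00000261884, PSMB10 had 15.9 ± 0.993 CPM in hypoxia and 23.8 ± 1.93 CPM in normoxia (SD, n = 3 each). Summed with ENSG00000256646, PSMA2 had 61.1 ± 8.09 CPM in hypoxia and 90.3 ± 2.83 CPM in normoxia. Of the 12 proteasome genes with annotated pseudogenes, 32 in all, PSMC1 was the only one whose pseudogenes held 5% or more of its counts.

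PSME3IP1, a binding partner of the activator PSME3, carries the symbol FAM192A in GENCODE release 29 and so fell outside the rule. It had 55.2, 57.2 and 54.7 CPM in hypoxia and 63.6, 62.2 and 65.1 CPM in normoxia, 1.14-fold lower (edgeR adjusted p = 0.00258).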
